A study of Mus musculus with 6 samples.

Results

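The genes that write, read or remove the histone marks tied to Hoxa control were examined in AE9a leukemia cells with and without Ddit4. They comprise 49 genes of the 55421 in the count table, chosen by name as subunits of the complexes. Of these, 27 belong to repressive complexes (Polycomb repressive complexes PRC2 and PRC1, and the demethylase Kdm1a), 19 to activating complexes (MLL, DOT1L, H3K27 demethylases, acetyltransferases and H3K36 methyltransferases), and 3 to PR-DUB, which removes the ubiquitin mark of PRC1. All 49 passed the filter on low counts. The cells were leukemia cells from the bone marrow of C57BL/6 mice, raised from c-Kit+ stem and progenitor cells of Ddit4+/+ or Ddit4-/- donors that had been infected with a retrovirus for AML1-ETO9a (AE9a, a truncated AML1-ETO fusion protein), marked by GFP and passed on through irradiated recipients. RNA-seq covered 3 libraries of AE9a-Ddit4+/+ (called wild-type here) and 3 of AE9a-Ddit4-/- leukemia (knockout), and both groups carry AE9a from a viral promoter with unknown integration sites. Donors were 6 to 8 weeks old and recipients female. The labels do not say whether the libraries of a group came from separate leukemias, nor which part of Ddit4 the knockout allele lacks, so p-values measure the spread between libraries, which may be technical. In the paper, fewer primary recipients of knockout cells had leukemia by the end of follow-up than the 3 knockout libraries. Some of these libraries may therefore share a leukemia of origin.

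PRC2 methylates H3K27 through Ezh1 or Ezh2, and PRC1 ubiquitinates H2A through Ring1 or Rnf2, each bound to a PCGF protein. Canonical PRC1 also holds a CBX protein, which reads methylated H3K27, and a PHC protein, and both complexes keep Hox and other developmental genes silent. MLL enzymes methylate H3K4, DOT1L methylates H3K79 with partners such as Mllt3 and Mllt10, and the pair is best known in blood for holding Hoxa and Meis1 active in MLL-rearranged leukemia.

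Promoters of 41 of the 49 genes were found in RefSeq (GRCm38.p6, 250 bases before to 50 bases after the start). They held a median of 29 CpG dinucleotides, against 7 over all 32851 promoters of that length. The median was 27 for the 7 promoters of genes that were higher in knockout libraries, 23 for the 5 of lower genes and 31 for the 29 others. The 250 bases before the start are shown for Pcgf2, Rnf2 and Mllt3, which moved far and kept their calls under each alternative, with each CpG in capitals.

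Pcgf2, chr11:97699649-97699898, minus strand: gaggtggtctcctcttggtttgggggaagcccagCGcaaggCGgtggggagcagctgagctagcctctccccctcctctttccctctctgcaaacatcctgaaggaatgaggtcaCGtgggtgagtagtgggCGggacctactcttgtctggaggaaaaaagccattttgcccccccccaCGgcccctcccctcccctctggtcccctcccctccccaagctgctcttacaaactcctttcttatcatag
Rnf2, chr1:151500992-151501241, minus strand: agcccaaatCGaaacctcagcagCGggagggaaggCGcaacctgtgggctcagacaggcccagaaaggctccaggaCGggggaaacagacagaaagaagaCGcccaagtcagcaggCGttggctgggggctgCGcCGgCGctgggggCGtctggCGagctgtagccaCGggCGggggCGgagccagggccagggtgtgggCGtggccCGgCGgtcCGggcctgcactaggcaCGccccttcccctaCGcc
Mllt3, chr4:88033408-88033657, minus strand: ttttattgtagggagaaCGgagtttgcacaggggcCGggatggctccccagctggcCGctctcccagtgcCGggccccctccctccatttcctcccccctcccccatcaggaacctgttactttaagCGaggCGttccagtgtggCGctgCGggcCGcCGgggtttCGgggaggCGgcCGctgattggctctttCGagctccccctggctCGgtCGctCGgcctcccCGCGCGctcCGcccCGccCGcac

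The Pcgf2 sequence had 5 CpG, whereas those of Rnf2 and Mllt3 had 20 and 23. The RefSeq start of Pcgf2 lies inside the gene as GENCODE draws it (97688823 to 97700497 on chromosome 11), so a start farther upstream is not covered here. Both strands of the 300-base promoters were searched for 3 motifs. The RUNX word TGTGGT, which the DNA-binding part of AE9a is known to read, was in 8 of the 41 promoters (19.5%), against 16.8% of all promoters. It was found in Asxl1, Asxl2, Ezh2, Jarid2, Pcgf2, Pcgf6, Rbbp4 and Wdr5. The GATA word AGATAA was in 0 of the 41 and in 11.2% of all promoters. An E2F word (TTTCCCGC, TTTCGCGC, TTTGCCGC or TTTGGCGC) was in 3 promoters (7.32%), against 2.26% of all, and the 3 were those of the PRC2 genes Ezh2, Suz12 and Phf19. Each E2F word holds a CpG and the GATA word none. The 41 promoters were richer in G and C (median 66.0%, against 52.7% of all), and the part of base composition in these shares was not tested. The sites of these PRC2 genes are shown because no other of the 41 promoters searched had the word, followed by the RUNX word of Pcgf2, the gene with the largest rise. The word is in capitals (in Phf19 it lies on the other strand).

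Ezh2, chr6:47595009-47595038, minus strand: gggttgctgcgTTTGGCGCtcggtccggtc
Suz12, chr11:79992876-79992905, plus strand: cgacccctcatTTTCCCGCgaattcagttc
Phf19, chr2:34914166-34914195, minus strand: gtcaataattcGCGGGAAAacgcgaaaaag
Pcgf2, chr11:97699599-97699622, minus strand: agcgacagggcTGTGGTccccctc

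Library totals ran from 62141558 to 72717681 counts, so that 1 count was worth 0.0136 to 0.0165 CPM (counts scaled to a common library size after TMM normalisation, the unit of all levels below). Ddit4 itself had 228, 161 and 342 CPM in the wild-type and 84.9, 77.7 and 85.9 CPM in knockout libraries (edgeR log2 fold change -1.56, SE 0.28, adjusted p = 0.00635). Mitochondrial genes took 5.03 to 7.91% of counts in wild-type and 11.3 to 16.4% in knockout libraries. The Y-linked gene Uty had no count in wild-type libraries and 20.5 to 29.3 CPM in knockout libraries, so genotype and sex cannot be told apart. The X-linked gene Xist had 1032, 566 and 884 CPM in wild-type and 63.2, 20.3 and 129 CPM in knockout libraries. Recipients were female, and the share of recipient cells in the libraries was not tested. Cell type markers differed widely. Of 16 erythroid markers 12 were lower and 0 higher in knockout (summed 7927 to 16633 against 675 to 1208 CPM), and of 11 megakaryocyte and platelet markers 8 were higher and 1 lower (138 to 224 against 2048 to 2822 CPM). Of 12 blast and progenitor markers 6 were higher and 1 lower (718 to 2094 against 2341 to 2492 CPM). Higher markers also numbered 15 of 17 for T and NK cells (12.3 to 84.0 against 111 to 176 CPM, with Trac, Cd8b1, Klrb1c and Ncr1 at 0 counts in wild-type), 8 of 10 for B cells (7.98 to 140 against 412 to 965 CPM), 8 of 13 for stroma and endothelium (7.75 to 14.0 against 427 to 458 CPM), 4 of 8 for mast cells and 5 of 12 for monocytes, with 0 lower. Of 15 neutrophil markers 1 was higher and 4 lower. Of 20 S phase genes 6 were lower and 14 did not pass (summed 2959 to 5985 against 1411 to 2966 CPM, with overlap), and of 20 G2 and M phase genes 12 were lower (3100 to 3900 against 855 to 1737 CPM), against 10.7% of all genes tested. The part of cell makeup, sex and mitochondrial share in the results below was not tested, and fewer cells of a type cannot be told apart from less RNA per cell in bulk libraries.

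By the quasi-likelihood test of edgeR, 15 of the 49 regulators had an adjusted p below 0.05, with 8 higher and 7 lower in knockout cells. This is 30.6%, close to the 30.1% of all 18375 genes tested that passed (19.4% higher and 10.7% lower). Among better expressed genes (average log2 CPM above 4) the share was 32.2%, and in DESeq2 it was 30.5% of all genes (20.0% higher and 10.6% lower). An adjusted p below 0.05 with a change of at least 2-fold was found in 9 regulators, against 25.4% of all genes, and an adjusted p below 0.01 in 7, with 4 higher and 3 lower, against 14.6% (10.7% and 3.87%). At an unadjusted p below 0.05 there were 21 (42.4% of all genes). The groups did not overlap in 22 regulators, against 50.1% of all genes. The median absolute log2 fold change of the 49 was 0.65, and it was 0.75 for all genes. In the repressive complexes 6 genes were higher, 4 lower and 17 not past the threshold (37.0% past). In the activating complexes 2 were higher, 3 lower and 14 not past it (26.3%), and in PR-DUB 0 of 3 passed in edgeR (0 at an unadjusted p below 0.05 and 0 in DESeq2). Without wild-type library 1 or 3 the lower repressive genes numbered 1, and without knockout library 2 or 3 they numbered 2. Higher activating genes numbered 1 without wild-type library 2 or 3 or knockout library 1 or 3. The latter count stayed at 2 without wild-type library 1 or knockout library 2, where Kdm6b and Men1 respectively passed in place of Wdr5. The share of all genes tested that passed was 31.0% without wild-type library 2. In the other fits without 1 library it fell as well, to between 19.8% and 22.2%. Rnf2, Pcgf2, Cbx2, Phc1, Kmt2d and Mllt3 kept their calls in each of the 14 alternatives.

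**Figure D1:**
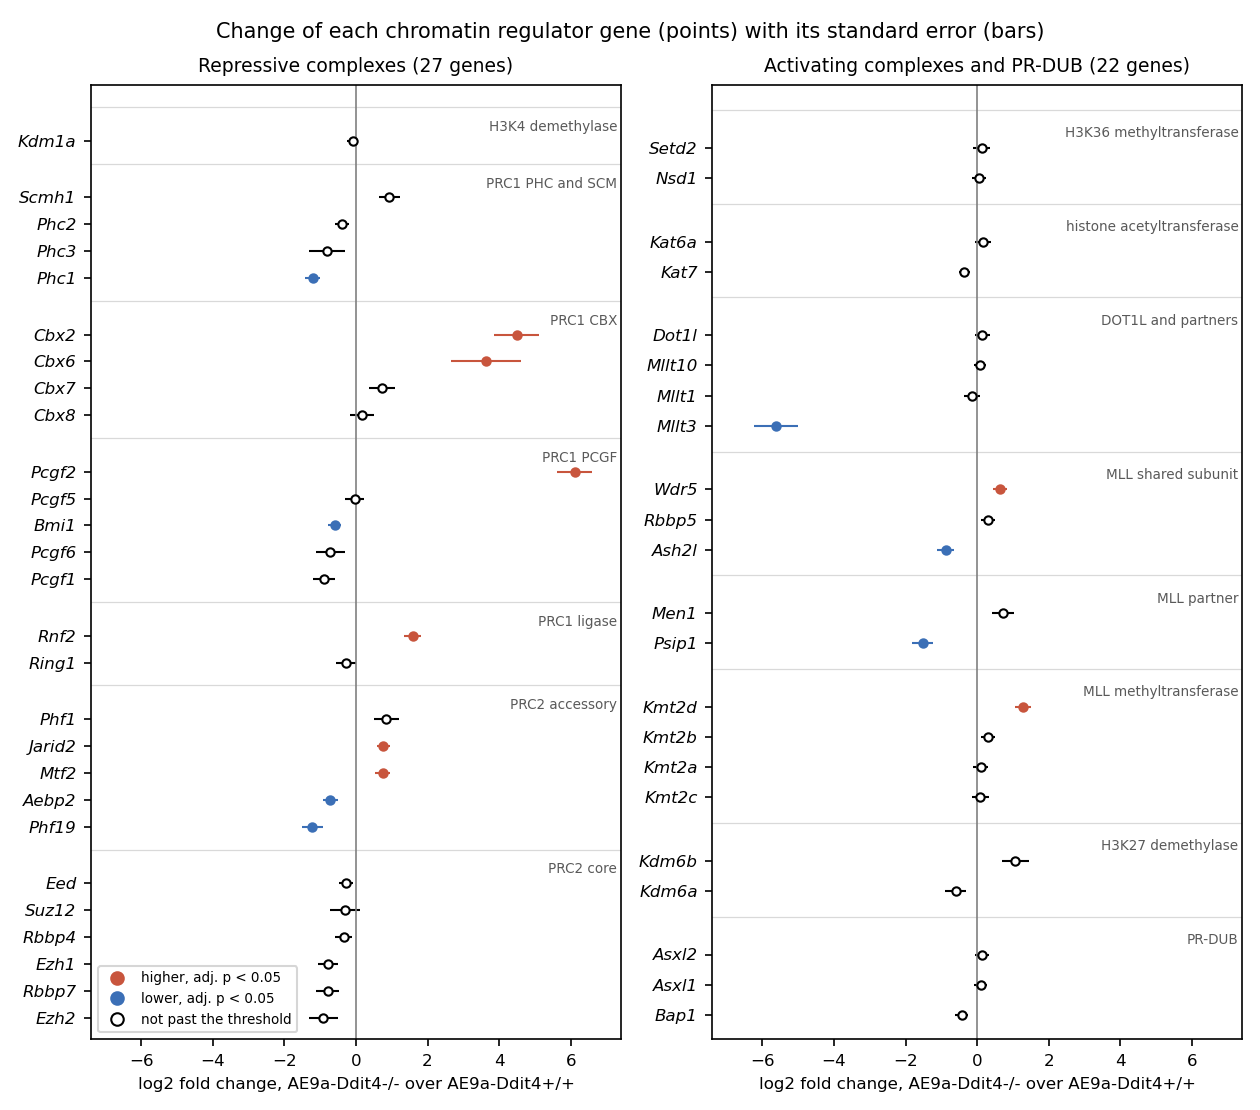
Log2 fold change of knockout over wild-type for the 27 repressive genes (left) and the 22 activating and PR-DUB genes (right), grouped by complex, with points for the edgeR estimate from 3 against 3 libraries and bars for its SE. Pcgf2 (6.11), Cbx2 (4.49) and Cbx6 (3.63) lie far to the right and Mllt3 (-5.62) far to the left, while most others lie within 1.6 of 0.

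The 6 genes of the PRC2 core had negative fold changes, from -0.28 to -0.91 on the log2 scale. The median of all tested genes with an average log2 CPM above 4 was -0.17. Of the 6, 0 passed the threshold in edgeR (2 at an unadjusted p below 0.05 and 0 in DESeq2). Ezh2, the main H3K27 methyltransferase of dividing cells, had 56.2, 34.5 and 83.3 CPM in wild-type libraries 1, 2 and 3 and 19.3, 29.4 and 44.0 CPM in knockout libraries (edgeR log2 fold change -0.91, SE 0.40, adjusted p = 0.129). The groups overlapped through the low wild-type library 2, which also had the lowest S phase sum of its group (2959 CPM). Its paralog Ezh1, used more in resting cells, had 53.1, 83.0 and 65.9 against 52.5, 28.8 and 36.2 CPM, without overlap (edgeR log2 fold change -0.78, SE 0.28, adjusted p = 0.0750). The ratio of Ezh1 to Ezh2 did not differ beyond its spread (two-sided exact permutation p = 0.7, n = 3 each). Per kb of exons the sum of both was 17.7 ± 3.14 and 9.89 ± 1.59 CPM (SD, n = 3 each), without overlap.

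Suz12, a scaffold of PRC2, had 1 library that stood apart. Its levels were 115, 92.6 and 83.4 CPM in wild-type libraries, and 135, 41.2 and 58.5 CPM in knockout libraries. The knockout library 1 lay above all others, and without it the log2 fold change went from -0.31 (edgeR adjusted p = 0.607) to -0.96 (0.0456). Ezh1 likewise passed the threshold without that library (-1.05, 0.0408). The chaperone-like histone binder Rbbp7, on the X chromosome, passed it without knockout library 2 (-1.18, 0.0392, against -0.79 and 0.101 with all libraries). Eed, which reads methylated H3K27, and Rbbp4 had changes of -0.28 and -0.34, with overlapping groups.

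The accessory subunits, which steer PRC2 to its sites, moved in both directions. The groups did not overlap in any of the 5, against 50.1% of all genes tested without overlap. Jarid2, which brings PRC2 to chromatin in the PRC2.2 form, had 48.1, 49.95 and 42.5 CPM in the wild-type and 88.4, 74.6 and 76.4 CPM in knockout libraries, a rise of 0.77 on the log2 scale (SE 0.18, edgeR adjusted p = 0.0157). Aebp2, its partner in the same form, fell from 62.4, 44.0 and 51.5 to 29.8, 33.6 and 32.8 CPM (-0.71, SE 0.21, adjusted p = 0.0346). Genes for both partners of PRC2.2 thus moved in opposite directions.

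The same split was seen in the Polycomb-like proteins of PRC2.1, which bind CpG-rich DNA. Mtf2 rose from 66.4, 57.6 and 85.8 to 130, 98.9 and 122 CPM (edgeR log2 fold change 0.74, SE 0.22, adjusted p = 0.0359). Phf19 fell from 38.3, 28.1 and 33.5 to 9.57, 15.1 and 18.4 CPM (-1.21, SE 0.30, adjusted p = 0.0194). In their joint level per kb, the share of Phf19 went from 25.9% ± 4.92 to 8.37% ± 3.43 and that of Mtf2 from 47.4% ± 5.28 to 57.9% ± 4.43 (SD, n = 3 each). Phf1, the other member, had 16.9, 29.8 and 25.1 against 64.0, 31.6 and 33.7 CPM and did not pass (0.85, adjusted p = 0.107). Phf1 shares 39.3% of its exon bases with Cuta on the other strand and Mtf2 shares 6.9% with Tmed5 (whether the counting used strand is not stated). Cuta and Tmed5 had changes of 0.12 and 0.17. The call of Jarid2 was lost without wild-type library 3, that of Phf19 without wild-type library 1 or 3 or knockout library 2, that of Aebp2 without any single library but wild-type 2 and that of Mtf2 without any but wild-type 3. Over all alternatives their adjusted p reached 0.0697, 0.0701, 0.121 and 0.120.

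In PRC1 the ligase genes parted. Rnf2 (RING1B), the main H2A ubiquitin ligase, rose from 73.6, 66.8 and 58.3 CPM in wild-type to 195, 250 and 151 CPM in knockout libraries (edgeR log2 fold change 1.59, SE 0.23, adjusted p = 0.00280). All 3 knockout libraries lay above 150 CPM and all 3 wild-type libraries below 75 CPM. Ring1, its paralog, had 19.0, 13.1 and 23.4 against 14.7, 16.3 and 14.6 CPM, with overlap (-0.28, adjusted p = 0.484). Rnf2 made up 73.8% ± 7.02 of the RING level per kb in wild-type and 90.9% ± 1.67 in knockout libraries. Genes on chromosome 1, where Rnf2 lies, had a median log2 fold change 0.40 above that of all genes (those with an average log2 CPM above 4). Of the 7 tested genes within 200 kb of Rnf2, 2 were higher and 0 lower, against 19.4% and 10.7% of all genes tested.

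Pcgf2 (MEL-18), a PCGF partner of the ligases, gave the largest rise of the 49 genes. It had 0.73, 0.71 and 0.25 CPM (46, 48 and 16 counts) in wild-type libraries and 37.6, 45.8 and 32.9 CPM in knockout libraries. This gave a log2 fold change of 6.11 (SE 0.48, adjusted p in edgeR = 0.000378), or 69.2-fold between the means. A rise of at least 32-fold past the threshold was found in 5.59% of all genes tested. The paralog Bmi1, a classic self-renewal gene that encodes the alternative PCGF partner in canonical PRC1, fell from 93.1, 76.5 and 79.2 to 53.2, 54.8 and 56.4 CPM (-0.60, SE 0.17, adjusted p = 0.0350). The call of Bmi1 was lost without any single library but wild-type 2, and its adjusted p reached 0.122 over the alternatives.

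The PCGF sum differed by less than its spread, while the shares of Pcgf2 and Bmi1 in it did not overlap. Added up over Pcgf1, Pcgf2, Pcgf3, Bmi1, Pcgf5 and Pcgf6, the level per kb was 36.8 ± 0.62 CPM in the wild-type and 37.2 ± 1.67 CPM in knockout libraries (SD, n = 3 each), with overlap, and the log2 ratio was 0.02 (-0.05 when library totals alone set the scale). The share of Pcgf2 in it went from 0.43% ± 0.20 to 29.5% ± 3.73, and that of Bmi1 from 56.8% ± 5.64 to 37.1% ± 1.95. The variant PRC1 genes Pcgf1, Pcgf5 and Pcgf6 had changes of -0.90, -0.03 and -0.72 and did not pass the threshold in edgeR. Pcgf1 did not overlap between the groups (adjusted p = 0.0624) and passed in DESeq2 (-0.89, adjusted p = 0.0178). Within 200 kb of Pcgf2, 6 of 20 tested genes were higher and 3 lower, against 19.4% and 10.7% of all genes tested. The median log2 fold change of the 20 was -0.26. The near neighbours Psmb3 and Cwc25 were lower (-0.82 and -0.67), whereas Mllt6 (1.65), Cisd3 (1.63) and Epop (4.43) on the other side were higher.

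**Figure D2:**
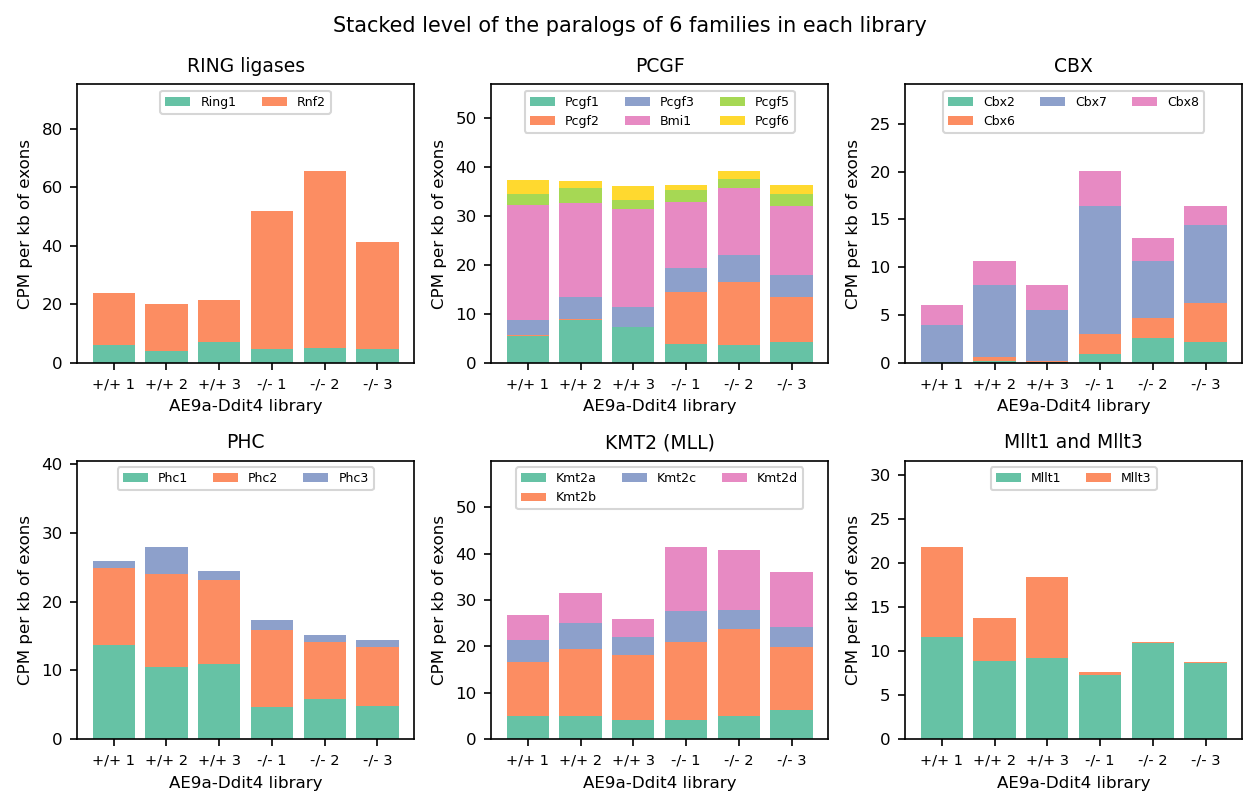
Level in CPM per kb of merged exons (vertical axis) of the examined paralogs of 6 families in each of the 3 wild-type and 3 knockout libraries (bars), stacked by gene. The PCGF stacks are of like height with Pcgf2 added and Bmi1 reduced in knockout, the RING, CBX and KMT2 stacks are higher there, and the PHC and Mllt1 with Mllt3 stacks are lower.

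Of the 4 CBX genes among the 49, whose proteins tie PRC1 to methylated H3K27, 2 were higher and 0 lower. Cbx2 had 0.32, 0.55 and 0.20 CPM in wild-type libraries and 3.90, 11.05 and 9.03 CPM in knockout libraries (edgeR log2 fold change 4.49, SE 0.62, adjusted p = 0.00237). It made up 12.5% ± 7.69 of the joint level per kb of the 4 genes in knockout libraries and 1.01% ± 0.37 in wild-type libraries. Cbx6 had 0.19, 5.10 and 1.78 against 22.2, 22.2 and 43.4 CPM (3.63, SE 0.98, adjusted p = 0.0286). The wild-type libraries of Cbx6 differed widely among themselves, and its call was lost without wild-type library 3 (adjusted p = 0.0952) or without knockout library 1, 2 or 3 (0.0608, 0.0523 and 0.0793).

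Cbx7, a CBX of stem cells, had 24.9, 48.6 and 34.6 against 87.0, 38.8 and 53.1 CPM, with overlap (log2 fold change 0.73, edgeR adjusted p = 0.171). It overlaps Apobec3 on the other strand over 1.5% of its exon bases, and Apobec3 had 3.95 times as many counts and was higher (1.449). Cbx8 had 0.16, which turned to -0.13 without knockout library 1. Cbx7 made up most of the sum of the 4 genes per kb (66.7% ± 3.52 and 54.2% ± 11.03), which was 8.25 ± 2.31 and 16.5 ± 3.53 CPM, without overlap. Cbx8 lies within 200 kb of Cbx2, where Tbc1d16, Ccdc40 and Rbfox3 were higher. Cbx6, Cbx7 and Kmt2d lie on chromosome 15, whose median log2 fold change was 0.56 above that of all genes by the same measure.

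Phc1, a polyhomeotic protein that links PRC1 complexes to one another, fell from 72.6, 55.8 and 58.2 CPM in wild-type to 24.8, 30.9 and 25.3 CPM in knockout libraries (edgeR log2 fold change -1.21, SE 0.21, adjusted p = 0.00502). The groups lay well apart. Phc2 and Phc3 had changes of -0.39 and -0.82 and did not pass, and that of Phc3 rested on wild-type library 2 (66.7 CPM, against 17.0 to 25.9 CPM in the other 5 libraries) and was 0.01 without it. The PHC sum per kb was 26.1 ± 1.73 and 15.6 ± 1.52 CPM, without overlap. Scmh1, which binds PHC proteins, had 21.7, 26.1 and 14.0 against 43.9, 45.7 and 28.8 CPM, without overlap, and just missed the threshold (0.94, SE 0.31, adjusted p = 0.0537, 0.0275 in DESeq2, and past it with 1.14 without wild-type library 2).

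**Figure D3:**
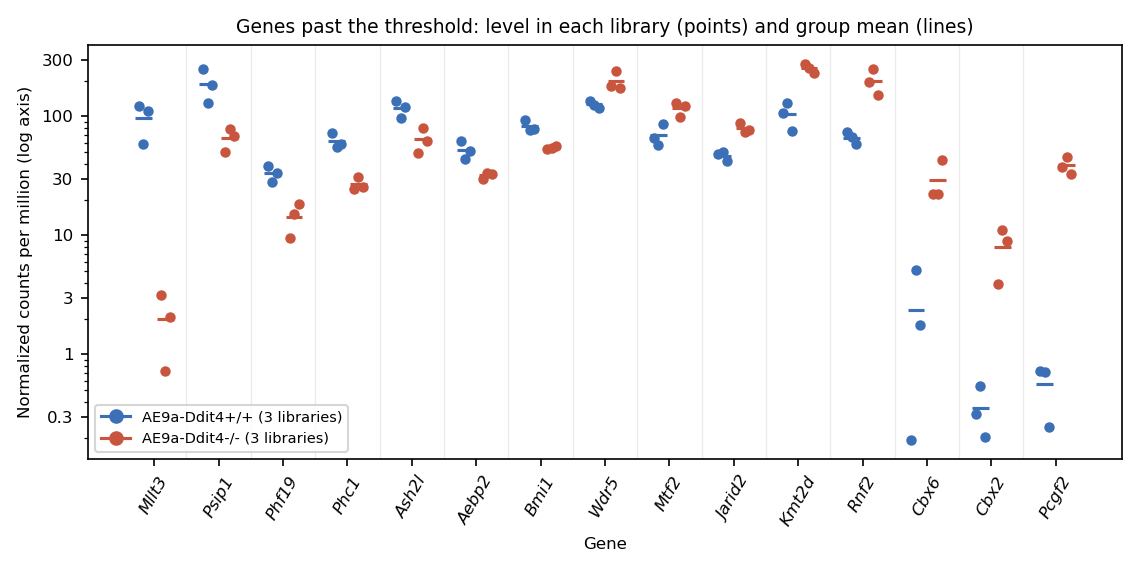
Level in each library (points, log axis in CPM) and group mean (lines) of the 15 regulators past the threshold, ordered by fold change, in wild-type (+/+, blue) and knockout (-/-, red). In each of the 15 genes the groups lie apart, from Mllt3 (0.72 to 3.15 CPM in knockout) to Pcgf2 (0.25 to 0.73 CPM in wild-type).

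Kdm1a (LSD1), which removes H3K4 methylation, had 109, 104 and 92.5 CPM in the wild-type and 95.7, 97.4 and 93.7 CPM in knockout libraries, with a log2 fold change of -0.09 (interval of 2 SE from -0.42 to 0.23). This was among the narrowest spreads of the 49 genes. In PR-DUB, the deubiquitinase Bap1 had 138, 98.4 and 125 against 91.5, 93.6 and 82.0 CPM (-0.43, edgeR adjusted p = 0.123), without overlap, and its cofactors Asxl1 and Asxl2 had 0.10 and 0.14.

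Among the 4 MLL methyltransferases, Kmt2d, an enhancer H3K4 methyltransferase, was higher. It went from 108, 129 and 75.9 CPM in wild-type to 275, 255 and 233 CPM in knockout libraries (edgeR log2 fold change 1.29, SE 0.23, adjusted p = 0.00592). The values of the groups lay far apart. Kmt2c, its partner paralog, had 98.1, 114 and 80.8 against 133, 87.1 and 89.9 CPM (0.08, interval of 2 SE from -0.39 to 0.56). Kmt2a (MLL1), the enzyme rearranged in MLL leukemia, had 84.7, 84.3 and 67.2 against 68.1, 81.3 and 103 CPM (0.10, interval from -0.33 to 0.53). Kmt2b had 110, 137 and 135 against 162, 180 and 131 CPM (0.31, interval from -0.08 to 0.70). Changes of Kmt2a and Kmt2c of up to 0.53 and 0.56 in log2 lie within these intervals. The share of Kmt2d in the KMT2 level per kb went from 18.5% ± 3.30 to 32.4% ± 0.94 (SD, n = 3 each), and the sum from 28.1 ± 2.97 to 39.3 ± 2.97 CPM.

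The subunits around these enzymes split as well. Psip1 (LEDGF), which tethers MLL with menin to chromatin, fell from 253, 130 and 185 CPM in wild-type to 50.3, 78.6 and 68.9 CPM in knockout libraries (edgeR log2 fold change -1.52, SE 0.29, adjusted p = 0.00807). It shares 9.5% of its exon bases with Snapc3 on the other strand, which had 0.141 times as many counts. Men1 (menin) had 14.9, 15.7 and 18.0 against 31.8, 16.2 and 31.7 CPM and did not pass (0.72, adjusted p = 0.120), though it did without knockout library 2 (0.93, 0.0469).

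Of the shared subunits that all MLL-type complexes use, Ash2l fell from 135, 97.8 and 120 to 49.2, 80.7 and 62.5 CPM (edgeR log2 fold change -0.87, SE 0.24, adjusted p = 0.0289). Wdr5 rose from 135, 126 and 117 to 179, 239 and 174 CPM (0.65, SE 0.19, adjusted p = 0.0379). Rbbp5 did not pass (0.30). The call of Ash2l was lost without wild-type library 1 or 3 or knockout library 1 or 3 and that of Wdr5 without any single library, with adjusted p up to 0.101 and 0.140 over the alternatives.

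In the DOT1L group a single gene was past the threshold. Mllt3 (AF9), a YEATS-domain reader that couples DOT1L and the elongation machinery to acetylated histones and is known to sustain human blood stem cells, had 123, 58.3 and 111 CPM in wild-type libraries and 3.15, 0.72 and 2.07 CPM in knockout libraries (196, 44 and 152 counts). This gave a log2 fold change of -5.62 (SE 0.61, adjusted p in edgeR = 0.00100), or 49.2-fold lower between the means. A fall of at least 32-fold past the threshold was found in 0.827% of all genes tested. The paralog Mllt1 (ENL) had 45.3, 34.8 and 35.99 against 28.7, 42.8 and 33.8 CPM (-0.14, interval of 2 SE from -0.60 to 0.32). Mllt3 made up 44.1% ± 7.82 of their joint level per kb in wild-type and 1.99% ± 1.46 in knockout libraries, and the sum went from 18.0 ± 4.03 to 9.12 ± 1.73 CPM, without overlap.

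Dot1l, the enzyme, had 114, 88.0 and 89.9 against 99.2, 132 and 91.1 CPM (log2 fold change 0.14, interval of 2 SE from -0.28 to 0.57), and Mllt10 (AF10) had 0.08. Both had overlapping groups. Mllt3 lies on the minus strand of chromosome 4 (87769925 to 88033364 on GRCm38), and Focad, the sole other tested gene within 200 kb, fell as well (-4.32, SE 0.66, edgeR adjusted p = 0.00344). Of the 23 other tested genes within 1.5 Mb, 4 were lower (Focad, Gm13283, Mtap and Cdkn2b) and 2 higher (Adamtsl1 and Acer2). The median log2 fold change of the 23 was -0.20. Over all genes tested, 10.7% were lower and 19.4% higher. Klhl9, which lies between Focad and Mtap, and Haus6 did not pass (-0.41 and -0.19).

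The H3K27 demethylase genes did not pass the threshold in edgeR, while the ratio of both did not overlap between the groups. Kdm6b (JMJD3), the inducible enzyme, had 163, 56.9 and 111 CPM in the wild-type and 306, 210 and 178 CPM in knockout libraries, without overlap (edgeR log2 fold change 1.07, SE 0.39, adjusted p = 0.0755). It passed without wild-type library 1 (1.46, 0.0403) and in DESeq2 (1.08, adjusted p = 0.0412). Its antisense gene Kdm6bos, which shares 4.1% of the Kdm6b exon bases, was higher (1.33, adjusted p = 0.0456) at 0.0219 times the counts. Kdm6a (UTX), an X-linked gene known to escape X inactivation, had 206, 181 and 113 against 139, 113 and 78.6 CPM (-0.60, adjusted p = 0.168), and an effect of sex on it cannot be told apart from one of genotype.

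Of the 4 acetyltransferase and H3K36 methyltransferase genes, 0 passed the threshold in edgeR (0 at an unadjusted p below 0.05 and 0 in DESeq2). Kat7 (HBO1) had 273, 249 and 258 against 207, 207 and 196 CPM, without overlap but short of the threshold (edgeR log2 fold change -0.35, SE 0.15, adjusted p = 0.122). Kat6a (MOZ), which activates Hoxa genes with Kat7 and MLL in other leukemias, had 106, 97.9 and 92.4 against 142, 101 and 89.9 CPM (0.17, interval of 2 SE from -0.26 to 0.60). Nsd1 had 166, 217 and 175 against 222, 163 and 199 CPM (0.06, interval from -0.33 to 0.46). Setd2 had 187, 161 and 112 against 183, 180 and 138 CPM (0.12, interval from -0.35 to 0.60). Both H3K36 genes had overlapping groups.

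**Figure D4:**
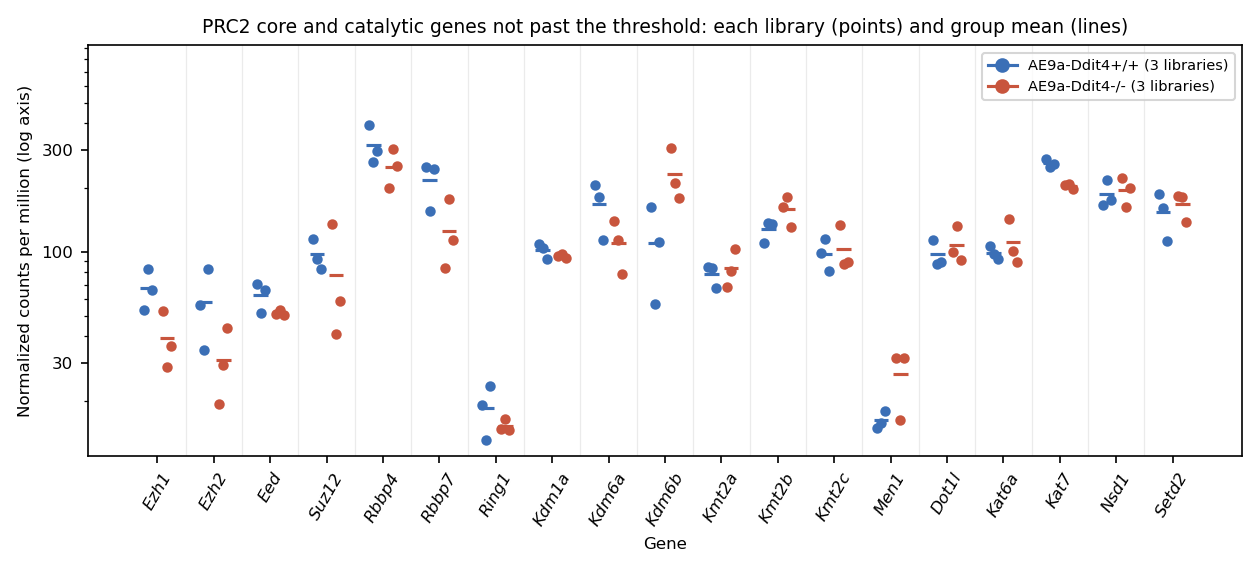
Level in each library (points, log axis in CPM) and group mean (lines) of 19 PRC2 core, catalytic and partner genes that did not pass the threshold, in wild-type (+/+, blue) and knockout (-/-, red). The knockout points of Ezh1, Ezh2 and Rbbp7 tend to lie lower and those of Kdm6b higher, Suz12 has a single high knockout library (135 CPM), and Kmt2a, Kmt2c, Nsd1 and Setd2 overlap.

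Ratios of paralogs within a library do not depend on scaling between libraries. Of 12 such log2 ratios per kb, 7 did not overlap between the groups, which gives an exact permutation p of 0.1 (two-sided, n = 3 each), the smallest possible with 3 against 3 libraries, and 0.171 after Benjamini-Hochberg adjustment over the 12. The share over other gene pairs was not computed, and of all single genes tested 50.1% did not overlap. Pcgf2 over Bmi1 went from -7.19 ± 0.84 to -0.34 ± 0.26 (SD), Mllt3 over Mllt1 from -0.35 ± 0.47 to -5.98 ± 1.38, and Ring1 over Rnf2 from -1.53 ± 0.52 to -3.34 ± 0.29. Of these genes Ring1 and Mllt1 did not pass the threshold. Kdm6b over Kdm6a went from -0.41 ± 0.87 to 1.34 ± 0.16, Kmt2d over Kmt2c from 0.10 ± 0.14 to 1.35 ± 0.26, Phc2 over Phc1 from 0.07 ± 0.34 to 0.88 ± 0.38 and Kat6a over Kat7 from -2.12 ± 0.08 to -1.63 ± 0.31. For Ezh1 over Ezh2, Rbbp7 over Rbbp4, Cbx7 over Cbx8, Asxl2 over Asxl1 and Kmt2b over Kmt2a the groups overlapped (exact p from 0.2 to 0.8).

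The other genes of these complexes were read from lists, against shares of 19.4% higher and 10.7% lower over all genes tested. Of 16 other Polycomb genes tested, 2 were higher and 4 lower, with a median log2 fold change of -0.22. Sfmbt2, an MBT-domain Polycomb protein, had 0.22, 0.06 and 0.12 CPM in the wild-type and 17.1, 14.3 and 13.4 CPM in knockout libraries (6.78, edgeR adjusted p = 0.000429), whereas its paralog Sfmbt1 fell from 80.0, 89.5 and 71.5 to 34.9, 33.6 and 26.9 CPM (-1.34, adjusted p = 0.00297). Epop, an inhibitory partner of PRC2 that lies within 200 kb of Pcgf2, rose (4.43, adjusted p = 0.00224), and Samd11 (-2.18), Bcorl1 (-1.90) and L3mbtl2 (-1.15) fell. The Sfmbt pair therefore moved apart in the way Pcgf2 and Bmi1 did, a likeness noticed after their values were seen.

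Of 8 other genes of PR-DUB and H2A deubiquitination, 2 were higher (Ogt 1.30, Mbd6 0.83) and 1 lower (Foxk1 -0.58). Of 11 other COMPASS genes, the MLL and SET1 complexes, 1 was higher (Setd1b 0.82) and 3 lower, namely Dpy30 (-1.04) and Cxxc1 (-1.02), which serve H3K4 methylation at promoters, and Paxip1 (-0.91), a subunit of Kmt2c and Kmt2d complexes. Of 15 elongation genes, 6 were higher, 1 lower and 8 not past the threshold, with a median of 0.39. Aff3 (3.27), Ell3 (1.80) and Mllt6 (1.65) were higher and Ell2, an elongation factor of the same complexes, fell from 167, 118 and 137 to 31.6, 39.0 and 34.3 CPM (-2.01, edgeR adjusted p = 0.000772). Of 18 other MYST and H3K36 genes, 2 were higher (Brd1 1.18, Jade2 1.06) and 1 lower (Hdgfl2 -0.65), with a median of -0.02.

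Of 13 corepressor partners of Kdm1a tested, 3 were higher and 1 lower, with a median of 0.04, and the share past the threshold was near the 30.1% of all genes. Insm1, a zinc-finger repressor of endocrine cells, had 0 counts in wild-type and 42.2, 45.5 and 13.2 CPM in knockout libraries (edgeR adjusted p = 0.00105). Rcor2 rose from 0.17, 0.06 and 0.22 to 6.04, 28.5 and 19.6 CPM (log2 fold change 6.90, adjusted p = 0.00130) and Phf21a by 2.08 in log2 (0.00780). Gfi1b, which recruits Kdm1a in the erythroid and megakaryocyte lineages, fell from 49.97, 42.3 and 63.4 to 19.9, 15.6 and 25.1 CPM (-1.36, 0.00799). Rcor1, the CoREST scaffold, did not pass (-0.31).

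**Figure D5:**
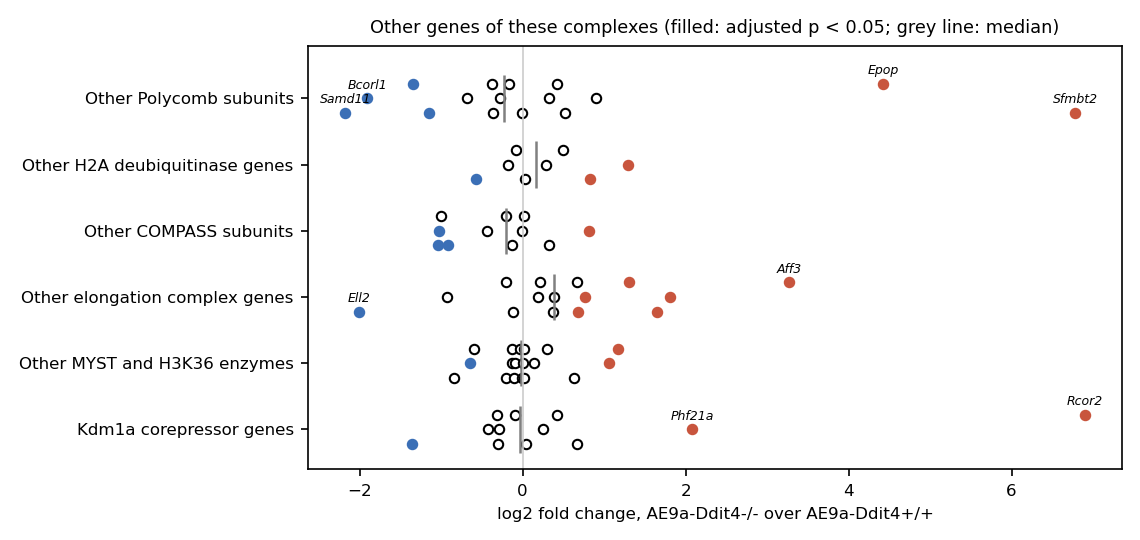
Log2 fold change of knockout over wild-type for the other tested genes of 6 groups (points, filled where the edgeR adjusted p is below 0.05, red higher and blue lower), with the median of the genes drawn as a grey line. Insm1, with 0 counts in wild-type, is left out. Most points lie within 1 of 0, while Rcor2 (6.90), Sfmbt2 (6.78), Epop (4.43) and Aff3 (3.27) stand apart.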

How the data were processed

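RNA-seq data of leukemia cells from mouse bone marrow, 3 AE9a-Ddit4+/+ and 3 AE9a-Ddit4-/- libraries, were analysed. The authors deposited 1 table of raw counts per gene, and each of its 6 columns was used. The submitters' processing notes name the build GRCm38 (mm10). The aligner, the counter and the use of strand are not given in the sources used here, and the kits named in the labels (for mRNA) and in the methods (directional, after rRNA removal) differ. Low counts piled up at multiples of 4 (1.40 to 1.62 times as frequent as the even values between), so the counts may not be independent fragments.

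The quasi-likelihood test of edgeR 4.0.16 was run in R 4.3.3 (filterByExpr, TMM, robust fit, genotype as the only term), with Benjamini-Hochberg adjustment over 18375 genes and a threshold of 0.05. DESeq2 1.42.0 was an alternative. Levels are CPM per library, per kb of merged GENCODE M21 exons where genes are compared. Ratios were tested by exact permutation in SciPy 1.17.1. The test was tried on simulated counts. Genes past the threshold and the catalytic subunits are given by library, and other lists by counts and their most changed genes, at most 3 in each direction. Family sums were chosen after seeing the data, and members and lists were chosen with earlier results of these data known. A few genes of the lists are not reported here. Promoter sequences are RefSeq's, on GRCm38.p6. No entry was matched for Kmt2b, Kat6a, Ash2l, Psip1, Kdm6b, Cbx2, Nsd1 and Pcgf1. Depth limits precision only for the low genes, and this covers counting error.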

Additional observations from a re-analysis of the deposited data

How the results depend on the processing

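Of 686 fits of the 49 genes under 14 alternatives, 613 kept direction and side of the threshold, 46 lost it, 12 gained it and 15 changed sign. The sign changes touched 10 genes that were not past the threshold, and 0 of the 15 that were. They were Pcgf5 with at least 10 counts in all libraries (0.034), and, over the fits without 1 library each, Pcgf5 (-0.19 to 0.21), Cbx8 (-0.13 to 0.28), Phc3 (-1.14 to 0.012), Asxl1 (-0.027 to 0.16), Kmt2a (-0.11 to 0.23), Kmt2c (-0.14 to 0.21), Dot1l (-0.076 to 0.27), Kat6a (-0.046 to 0.25), Nsd1 (-0.036 to 0.19) and Setd2 (-0.063 to 0.29), for which the cause was not tested. At an adjusted p below 0.01, 2676 genes passed, with 1 lower and 3 higher repressive and 1 higher activating gene. Without a low-count filter 1 activating gene was higher (18.1% of all genes passed), and a minimum of 10 counts in all libraries left 2 lower repressive genes (27.4%). Leaving out each library in turn gave 3840 to 6021 genes, 1 to 4 lower and 4 to 6 higher repressive genes, and 2 to 3 lower and 1 to 2 higher activating genes. Of 84 recomputed paralog ratio differences, 5 changed sign without 1 library, those of Ezh1 over Ezh2 (-0.44 to 0.59) and Asxl2 over Asxl1 (-0.11 to 0.13). The PCGF sum moved to -0.05 in log2 with library totals alone, and with that scaling the Polycomb-like sum overlapped. Replicate numbers did not pair the samples (same-number correlations -0.24, -0.28 and -0.04), and with the replicate block 2964 genes passed, with 1 lower repressive, 1 lower activating and 1 higher activating gene. Among the genes that lost their call under the block, Psip1 (-1.49, edgeR adjusted p = 0.0509) lost it under no other alternative.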

Other observations

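Genes known as targets of these complexes were read from textbook lists. Of 24 Polycomb targets, 13 had no count in wild-type libraries and 5 had enough counts to be tested, of which 1 was higher and 3 lower. Over all genes tested, 19.4% were higher and 10.7% lower. Pax6, a developmental transcription factor gene that is silent in most blood cells, had 170, 208 and 177 CPM in wild-type libraries and 0.06, 0.00 and 0.48 CPM in knockout libraries (edgeR adjusted p = 0.000774). Cdkn2b, which encodes the CDK inhibitor p15, fell from 2.69, 2.59 and 2.54 to 0.26, 0.31 and 0.19 CPM (log2 fold change -3.36, adjusted p = 0.00221), whereas its neighbour Cdkn2a had 11.5, 4.86 and 3.61 against 2.55, 4.56 and 15.4 CPM (0.17, adjusted p = 0.878). Bmp2 fell (-5.36, adjusted p = 0.0232), from 4.12, 9.003 and 36.8 CPM to at most 1.06 CPM. Eomes, a T-box gene of T and NK cells as well, had 0.19, 0.00 and 0.00 against 5.73, 0.86 and 2.69 CPM (adjusted p = 0.0257), beside the T and NK cell markers that were higher in the same libraries.

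Of 15 genes known to depend on MLL or DOT1L in leukemia, 7 were higher and 1 lower, with a median log2 fold change of 1.11. The shares over all genes tested were 19.4% higher and 10.7% lower, with a median of 0.0375. Meis1, a homeobox partner of Hoxa proteins, rose from 0.66, 1.15 and 0.03 to 29.5, 24.7 and 32.5 CPM (5.55, SE 0.96, edgeR adjusted p = 0.00535), and Runx2 from 12.2, 24.7 and 8.74 to 108, 60.1 and 39.4 CPM (2.19, adjusted p = 0.0158). Six4 had 0 counts in wild-type libraries and 2.59, 7.88 and 4.28 CPM in knockout libraries (adjusted p = 0.00189). Pbx3, another partner of Hoxa proteins, fell from 27.2, 33.8 and 22.7 to 5.14, 3.47 and 7.42 CPM (-2.38, adjusted p = 0.00304). Genes of the list thus moved in both directions, and they were chosen with earlier results known. Meis1 is also expressed in megakaryocytes, whose markers were higher (138 to 224 against 2048 to 2822 CPM in all), and the part of this in the result was not tested.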
